A study of Macaca mulatta with 38 samples.

Results

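The genes described here encode the classical axon guidance ligands and their receptors: Eph receptors, ephrins, semaphorins of classes 3 to 7, plexins, neuropilins, Slits, Robos, netrins, DCC and the UNC5 receptors. They were chosen by gene symbol alone, and 69 of the 34619 genes in the count table matched: 14 Eph receptors, 8 ephrins, 20 semaphorins, 11 plexins and neuropilins, 7 Slits and Robos, and 9 genes of the netrin, DCC and UNC5 group. The filter on low counts left 67 of them among 20794 tested genes. EPHA1, with at most 6 counts in any library, and NTN5, with at most 5, were not tested.

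Axon guidance molecules are cell-surface or secreted cues that steer growth cones by attraction or repulsion. Ephrins, anchored in the membrane by a lipid (ephrin-A) or a transmembrane segment (ephrin-B), bind Eph receptor tyrosine kinases and can signal in both cells at a contact. Secreted class 3 semaphorins act through neuropilins that carry plexins as signalling partners, most membrane-bound semaphorins bind plexins directly, Slits repel through Robo receptors, and netrin-1 attracts through DCC and repels through UNC5 receptors. In the developing cortex the same families also act in progenitors, in neuronal migration and in boundaries between territories, so their transcripts occur in dividing cells as well as in axon-bearing neurons.

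RNA was sequenced from 38 cultures of wild-type rhesus macaque neural stem cells, isolated from fetal cortex at embryonic day 77 (E77, frontal or occipital) or embryonic day 42 (E42, anterior or posterior). The cells were plated on polyornithine and fibronectin in low oxygen and expanded with daily FGF2, a growth factor that keeps progenitors dividing, through day 5 in vitro. FGF2 was then withdrawn and the medium changed to one with B27, BDNF and NT-3, in which the cells differentiate. Each of the 4 culture series gave 1 library per day, on days 1, 3 and 5 (stem phase), 6, 7 and 8 (transition phase) and 11, 14 and 17 (terminal phase), with a further terminal library on day 20 at E77. RNA of 2 wells was combined in each library, and the labels do not tie libraries to separate animals or separately started cultures. The spread behind every edgeR p-value below is therefore that between days within a series and phase, pooled over the 4 series in 1 fit. In the age comparisons within a phase and the region comparisons, day effects shared by the series were taken out of that spread. Age and region cannot be told apart from the fetus, the dissection or the culture. In bulk RNA, fewer cells of a type and less RNA per cell cannot be told apart either.

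Libraries held 20149635 to 56363300 counts, with a median of 27597365.5. All cultures carried the radial glia genes of the cells they are labelled as, with the 10 markers (PAX6, SOX2, VIM and others) summing to between 1718 and 5056 RPKM. RPKM is reads scaled to gene length and to library size, which allows levels to be set side by side between genes. FABP7, VIM and SLC1A3 made up most of the radial glia sum in every series. In E42 Anterior they averaged 1289, 883 and 338 RPKM of a mean sum of 2758 RPKM, against 18.5 RPKM for PAX6 and 32.1 RPKM for SOX2. The E42 Anterior series stood apart: 12 mesenchymal genes (collagens, DCN, LUM and others) summed there to 3319 to 8360 RPKM, against 91.3 to 186 RPKM at E77 Frontal, 121 to 278 RPKM at E77 Occipital and 34.6 to 161 RPKM at E42 Posterior. PDGFRA made up most of the E77 Occipital sum, with 135 RPKM of a mean sum of 176 RPKM. COL1A1, COL1A2, COL3A1 and LUM averaged 0.0658 to 0.506 RPKM in that series. The 9 choroid plexus and cortical hem markers summed to 15.8 to 28.0 RPKM in E42 Anterior, against at most 3.92 RPKM in any other library. Most of that sum was MSX1, with a series mean of 18.2 RPKM against at most 0.318 RPKM in the other series. Of the 8 tested markers, 3 were called higher and 3 lower in E42 Anterior than in E42 Posterior. Endothelial markers summed to at most 19.3 RPKM, microglial markers to at most 1.44 RPKM and blood markers to at most 0.101 RPKM in any library.

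Averaged over all libraries, 62 of the 69 genes lay at or above 1 RPKM and 26 at or above 10 RPKM. The highest means were those of EFNB1 at 84.4 RPKM, PLXNB2 at 69.5 RPKM and EFNB2 at 69.1 RPKM. EFNB1 and EFNB2 are transmembrane ephrins, and PLXNB2 is a plexin-B receptor of class 4 semaphorins. ROBO2 (44.5 RPKM) and ROBO1 (35.9 RPKM), the main neuronal Slit receptors, were the highest of the Slit and Robo group, and none of their 3 Slit ligands reached a mean of 10 RPKM. SEMA6A (43.9 RPKM) and SEMA5A (32.0 RPKM), both transmembrane, led the semaphorins. DCC at 25.5 RPKM and NTN1 at 13.5 RPKM led the netrin group, and EPHB2 at 16.97 RPKM and EPHB4 at 13.2 RPKM led the Eph receptors. At the low end lay EPHA6 (0.607 RPKM), ROBO4 (0.502 RPKM), EPHA10 (0.199 RPKM), SEMA3G (0.127 RPKM) and EPHA8 (0.0470 RPKM). Summed over all 69 genes, the level was 774 to 992 RPKM at E77 Frontal, 698 to 931 at E77 Occipital, 696 to 1086 at E42 Anterior and 839 to 992 at E42 Posterior. The highest of the 4 series means belonged to E77 Frontal for 10 of the tested genes, E77 Occipital for 11, E42 Anterior for 23 and E42 Posterior for 23.

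**Figure D1:**
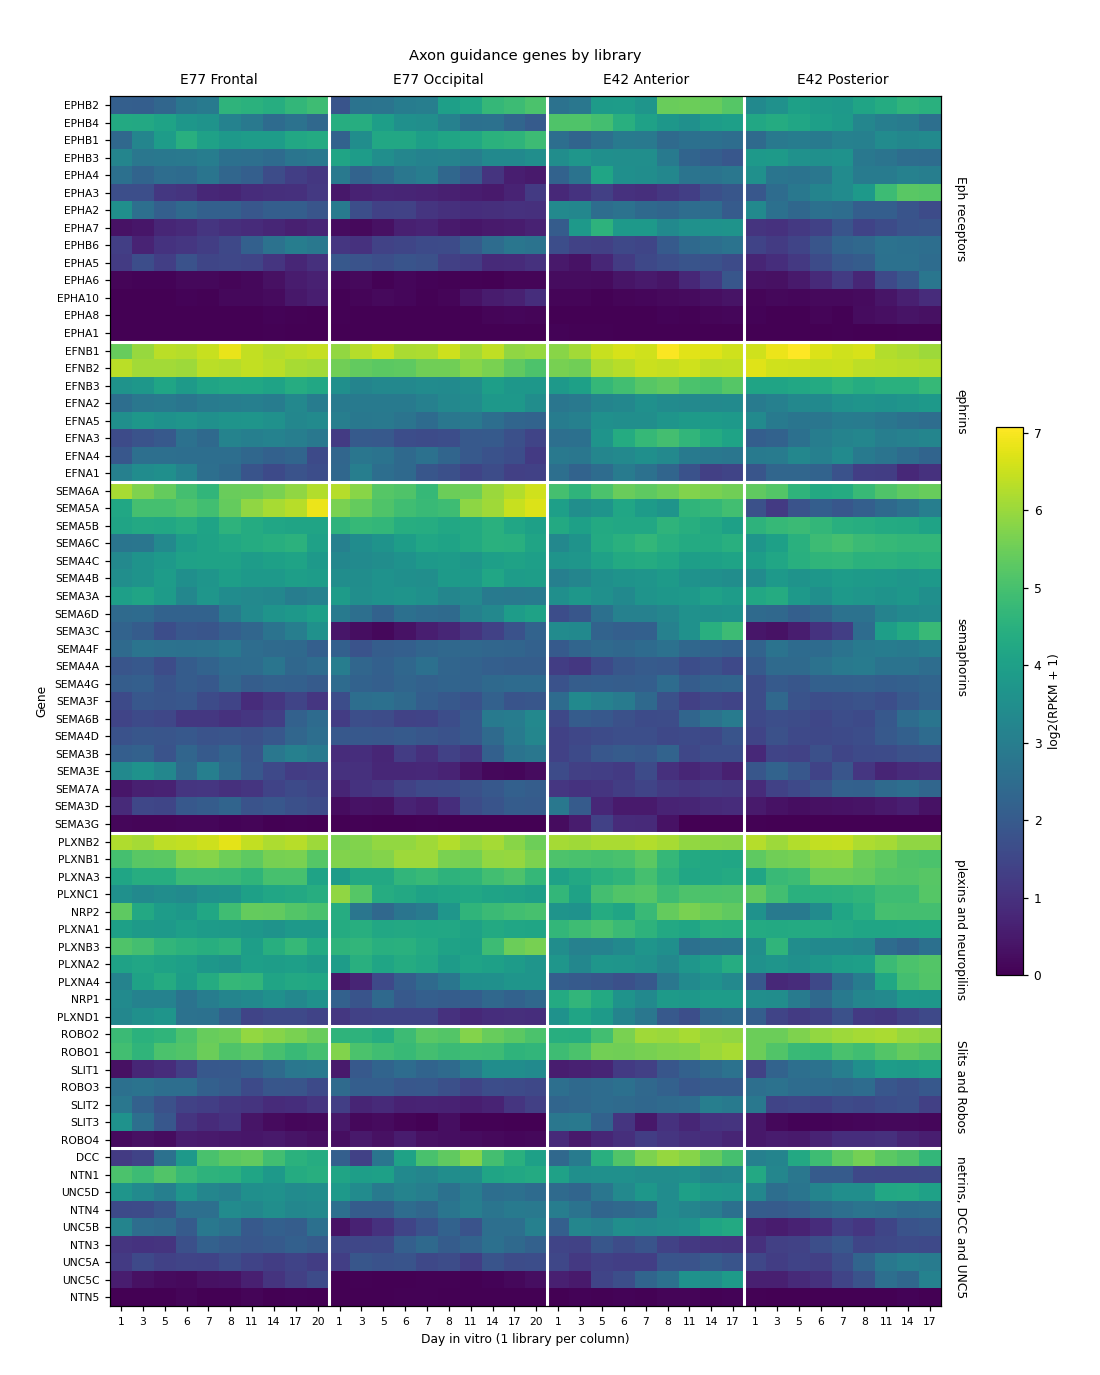
Level of each guidance gene in every library, in log2(RPKM + 1), with libraries in columns by culture series and day and genes in rows by family. EFNB1, PLXNB2 and EFNB2 are bright throughout. EPHA8 is dark in every library, at no more than 0.292 RPKM, while SEMA3G reaches 1.56 RPKM on day 5 of E42 Anterior and EPHA10 0.907 RPKM on day 20 of E77 Occipital.

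The first question the series poses is which genes change as cultures leave the FGF2-driven stem phase and differentiate. Guidance genes moved mostly upward. In the average of the 4 series, 40 of the 67 tested genes were higher in the 14 terminal than in the 12 stem libraries, against 31.9% of all tested genes, and 19 were lower, against 30.4% of all tested genes (edgeR quasi-likelihood test, Benjamini-Hochberg adjusted p under 0.05). Their median log2 fold change was 0.39, against 0.0008 over all tested genes. Netrin-group genes had 7 higher and 1 lower of 8, Eph receptors 9 and 4 of 13, semaphorins 15 and 5 of 20, ephrins 3 and 2 of 8, plexins and neuropilins 4 and 4 of 11, and Slits and Robos 2 and 3 of 7. Neuronal markers moved with this contrast, 11 of 12 higher and none lower: they summed to between 677 and 1459 RPKM in terminal libraries and between 183 and 500 RPKM in stem libraries. All 10 proliferation markers were lower, as were 9 of 12 mesenchymal markers, while 7 of 8 astrocyte markers were higher. Radial glia markers had 8 lower and 2 higher of 10, and endothelial markers 5 lower and 1 higher of 7. Of the glutamatergic markers 8 of 10, of the GABAergic 7 of 9 and of the oligodendrocyte 6 of 10 were higher, and none lower. At E42 Anterior alone, 5 oligodendrocyte markers were lower and none higher. The part of these cell types in the guidance gene changes was not tested.

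In each of the 4 series taken alone, 10 of the genes were called higher (7.61% of all tested genes were) and 4 were called lower (5.36% of all tested genes). The 10 were DCC, UNC5C, SLIT1, ROBO2, SEMA3C, SEMA5A, SEMA6D, EPHB6, EPHA8 and EPHA10, and the 4 were EFNA1, EPHB4, ROBO3 and SEMA3E. In single series the higher and lower calls were 28 and 13 at E77 Frontal (background 22.5% and 20.7%), 30 and 18 at E77 Occipital (21.6% and 19.6%), 26 and 14 at E42 Anterior (17.9% and 16.2%), and 30 and 13 at E42 Posterior (21.5% and 17.8%). Without the day 1 library the E42 Posterior count of higher genes was 19, and the share over all tested genes 15.7%. For 12 genes a rise in at least 1 series stood beside a fall in at least 1 other (3.37% of all tested genes), and PLXNB2 and SEMA6A passed in no single series.

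Receptors for netrin rose most steeply in their family. DCC, the attractive netrin receptor, had 15.3 to 54.5 RPKM in terminal libraries with a median of 30.6, against 1.33 to 21.2 RPKM with a median of 5.48 in stem libraries. The day 5 libraries of E42 Anterior, at 21.2 RPKM, and E42 Posterior, at 18.3 RPKM, were the stem libraries that overlapped the terminal range. The log2 fold change was 2.47 ± 0.29 (SE; edgeR adjusted p = 2.39e-08). At E77 Frontal DCC ran at 1.33, 1.70 and 5.23 RPKM on days 1, 3 and 5, at 13.1, 31.7 and 37.8 RPKM on days 6, 7 and 8, and at 40.6, 29.3, 21.9 and 19.9 RPKM on days 11, 14, 17 and 20. The other series had the same shape, with a peak on day 8 or 11 and a lower last day.

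UNC5C, a repulsive netrin receptor, reached its highest levels in E42 cultures. It had 0.0174 to 13.6 RPKM in terminal libraries (median 1.79), against 0.0114 to 1.73 RPKM in stem libraries (median 0.451), a log2 fold change of 2.92 ± 0.32 (edgeR adjusted p = 4.34e-09). E77 Occipital stayed between 0.0114 and 0.201 RPKM on every day. E77 Frontal had 0.553, 1.10 and 1.54 RPKM on days 11, 14 and 17 and 2.04 RPKM on day 20. Of these, day 20 alone lay above the highest stem value, that of E42 Anterior on day 5. E42 Anterior reached 11.1, 10.3 and 13.6 RPKM on days 11, 14 and 17. UNC5B, another repulsive receptor with a known role in vessels, was higher by 1.44 ± 0.20 (edgeR adjusted p = 3.05e-07), with 1.76 to 18.7 RPKM (median 4.26) in terminal and 0.275 to 8.46 RPKM (median 2.23) in stem libraries. UNC5B was called higher in 3 series and not at E77 Frontal, which had 2.95 to 5.16 RPKM in terminal and 4.45 to 8.14 RPKM in stem libraries. NTN1, the netrin-1 ligand, was the 1 gene of the group that fell, to 1.82 to 20.4 RPKM in terminal libraries (median 11.7), against 6.00 to 34.6 RPKM in stem libraries (median 15.3), a log2 fold change of -0.93 ± 0.13 (edgeR adjusted p = 2.93e-07). The largest fall of the 4 series was in E42 Posterior, where NTN1 had 18.2, 8.55 and 6.00 RPKM on days 1, 3 and 5 and 1.82, 1.83 and 1.88 RPKM on days 11, 14 and 17. NTN1 was called lower in 2 series, E42 Posterior and E77 Frontal. At E77 Occipital its log2 fold change of 0.10 did not pass, and at E42 Anterior it did not pass either.

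Among the Slits, the ligands of Robo receptors, SLIT1 and SLIT3 went in opposite directions. SLIT1 had 3.49 to 14.9 RPKM in terminal libraries (median 6.37), against 0.246 to 5.00 RPKM in stem libraries (median 0.788), and was higher by 2.50 ± 0.24 (edgeR adjusted p = 6e-10). SLIT3 had 0.00310 to 1.08 RPKM in terminal libraries (median 0.103), against 0.0429 to 11.1 RPKM in stem libraries (median 1.58), and was lower by a log2 fold change of -3.05 ± 0.33 (edgeR adjusted p = 3.37e-09). Stem values of SLIT3 above 1 RPKM came from the frontal and anterior cultures: E77 Occipital and E42 Posterior held at most 0.367 RPKM on any day. ROBO2 rose to 32.8 to 71.0 RPKM in terminal libraries (median 56.2), against 19.9 to 50.8 RPKM in stem libraries (median 23.5; 0.98 ± 0.08, edgeR adjusted p = 1.02e-11). ROBO3, a divergent Robo known for commissural axon crossing, fell without overlap: it had 1.74 to 3.07 RPKM (median 2.52) in terminal and 3.28 to 5.41 RPKM (median 4.81) in stem libraries, a log2 fold change of -0.89 ± 0.07 (edgeR adjusted p = 5.46e-12). ROBO1 did not pass, at 0.14 ± 0.09 (edgeR adjusted p = 0.2).

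The Eph receptors divided by gene. EPHB2, an ephrin-B receptor of growing axons, had 17.1 to 44.1 RPKM in terminal libraries (median 24.9), against 2.60 to 15.2 RPKM in stem libraries (median 5.55). No terminal library overlapped a stem one, and the log2 fold change was 2.10 ± 0.23 (edgeR adjusted p = 6.98e-09). EPHB2 was called higher in 3 series and did not pass at E42 Posterior. That series had 9.18 to 15.2 RPKM in stem and 19.3 to 23.2 RPKM in terminal libraries. EPHB6, which lacks kinase activity, was also free of overlap, at 3.10 to 7.03 RPKM (median 5.22) in terminal and 0.644 to 2.16 RPKM (median 1.4999) in stem libraries (1.87 ± 0.14, edgeR adjusted p = 9e-13). EPHA6, an ephrin-A receptor, rose at a low level, with 0.0172 to 5.83 RPKM in terminal libraries (median 0.504) and 0.0225 to 0.434 RPKM in stem libraries (median 0.138), a log2 fold change of 2.15 ± 0.29 (edgeR adjusted p = 1.62e-07). Its terminal values above 1 RPKM were all from E42, and at E77 Occipital, with a log2 fold change of -0.71, it did not pass.

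EPHB4, EPHA2, EPHB3 and EPHA4 were the Eph receptors that fell. EPHB4, the ephrin-B2 receptor best known from veins, had 3.11 to 15.0 RPKM in terminal libraries (median 5.29), against 14.5 to 33.8 RPKM in stem libraries (median 19.1). The log2 fold change was -1.67 ± 0.11 (edgeR adjusted p = 9.12e-14), and the E42 Anterior day 17 library alone lay above the lowest stem value. EPHA2, a receptor for ephrin-A1, had 0.892 to 4.73 RPKM (median 2.70) in terminal and 1.59 to 10.5 RPKM (median 5.06) in stem libraries (-1.23 ± 0.18, edgeR adjusted p = 1.04e-06), and without the day 1 stem libraries the log2 fold change was -0.76. EPHB3 had 2.76 to 10.2 RPKM (median 5.28) in terminal and 6.04 to 16.4 RPKM (median 10.8) in stem libraries (-0.99 ± 0.10, edgeR adjusted p = 1.18e-09). EPHA4, which binds ephrins of both classes, had 0.420 to 7.65 RPKM (median 3.12) in terminal and 3.66 to 16.9 RPKM (median 5.28) in stem libraries (-0.96 ± 0.23, edgeR adjusted p = 0.000753). EPHA4 passed in both E77 series and in neither E42 series.

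Of the 8 ephrin ligands, 3 did not pass. EFNA1, a ligand of EPHA2, fell without overlap to 0.764 to 2.55 RPKM in terminal libraries (median 1.75), against 2.65 to 10.4 RPKM in stem libraries (median 4.76), a log2 fold change of -1.64 ± 0.15 (edgeR adjusted p = 4.63e-11). EFNA3 was higher by 0.99 ± 0.14 (edgeR adjusted p = 3.19e-07), and passed in every series but E77 Occipital, where its log2 fold change was 0.08. The most abundant gene of all, EFNB1, had 58.0 to 106 RPKM in terminal libraries (median 79.3) and 41.6 to 133 RPKM in stem libraries (median 78.1), and its log2 fold change of 0.04 ± 0.10 did not pass (edgeR adjusted p = 0.744). Within series EFNB1 was higher at E77 Frontal by 0.50 and lower at E42 Posterior by a log2 fold change of -0.70. EFNB2 did not pass at 0.14 ± 0.08 (edgeR adjusted p = 0.0991).

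Class 3 semaphorins, the secreted ones, held the steepest rise among genes that averaged at least 1 RPKM in terminal libraries, and also steep falls. SEMA3C, a ligand of both neuropilins, had 1.08 to 28.0 RPKM in terminal libraries (median 9.001), against 0.103 to 9.72 RPKM in stem libraries (median 1.32), a log2 fold change of 2.95 ± 0.28 (edgeR adjusted p = 2.83e-10). The rise was 5.76 on the log2 scale at E42 Posterior, where the days ran 0.345, 0.259 and 0.489, then 1.06, 1.48 and 4.68, then 14.5, 18.5 and 26.9 RPKM. It was 1.28 at E77 Frontal and 1.34 at E42 Anterior, the series with the higher stem values. SEMA3E, which binds plexin-D1 without a neuropilin, fell to 0.0830 to 2.81 RPKM in terminal libraries (median 0.748), against 0.727 to 11.1 RPKM in stem libraries (median 2.39; -2.00 ± 0.16, edgeR adjusted p = 4.81e-12). Its receptor gene PLXND1 fell as well, to 0.774 to 4.43 RPKM in terminal libraries (median 1.72), against 1.20 to 16.4 RPKM in stem libraries (median 5.99; -1.40 ± 0.15, edgeR adjusted p = 3.86e-09). PLXND1 passed at E77 Frontal and E42 Anterior and not at E77 Occipital or E42 Posterior.

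Among the transmembrane semaphorins, SEMA5A and SEMA6D were called higher in all 4 series, SEMA6B and SEMA6C in 3, and SEMA6A in none. SEMA6D, a plexin-A1 ligand, had 7.52 to 15.9 RPKM (median 10.8) in terminal and 2.15 to 6.49 RPKM (median 4.30) in stem libraries with no overlap (1.40 ± 0.13, edgeR adjusted p = 1.8e-10). SEMA5A was higher by 1.28 ± 0.13 (edgeR adjusted p = 1.07e-09) and passed in all 4 series, though its level differed so much between series that the ranges overlapped, at 4.30 to 115 RPKM (median 58.1) in terminal and 1.31 to 49.5 RPKM (median 16.2) in stem libraries. All 6 measured class 4 semaphorins (SEMA4A, SEMA4B, SEMA4C, SEMA4D, SEMA4F and SEMA4G), ligands of plexin-B receptors, were higher, with log2 fold changes of 0.18 to 0.63, though SEMA4F was at 0.09 and did not pass without the day 1 stem libraries (edgeR adjusted p = 0.245). Of the class 4 receptors, PLXNB1 was lower by a log2 fold change of -0.20 (edgeR adjusted p = 0.0137), and PLXNB2 did not pass at -0.08 (edgeR adjusted p = 0.294). Without E42 Anterior the PLXNB1 value was 0.04 and did not pass (edgeR adjusted p = 0.701). SEMA6A, the most abundant semaphorin, was higher by 0.36 ± 0.13 (edgeR adjusted p = 0.0195), and without E42 Anterior by 0.25 (edgeR adjusted p = 0.156).

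Of the receptors for secreted semaphorins, PLXNA4 rose most. This plexin-A, which transduces SEMA3A and SEMA6 signals, had 9.08 to 34.5 RPKM in terminal libraries (median 14.2), against 0.366 to 19.4 RPKM in stem libraries (median 2.78; 2.46 ± 0.25, edgeR adjusted p = 1.18e-09). E77 Occipital had 0.366, 0.661 and 1.95 RPKM on days 1, 3 and 5, 3.26, 4.40 and 5.87 RPKM on days 6, 7 and 8, and 10.5, 10.7, 11.8 and 11.98 RPKM on days 11, 14, 17 and 20. E77 Frontal was between 7.96 and 25.3 RPKM throughout, and its log2 fold change of 0.46 did not pass. NRP2, a neuropilin co-receptor, had 23.9 to 48.8 RPKM (median 31.7) in terminal and 4.25 to 39.2 RPKM (median 11.3) in stem libraries (1.43 ± 0.22, edgeR adjusted p = 1.4e-06). NRP1, the other neuropilin, did not pass at 0.05 ± 0.10 (edgeR adjusted p = 0.703). It fell at E42 Anterior, by a log2 fold change of -0.68, and the average without that series was 0.29 (edgeR adjusted p = 0.0281).

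**Figure D2:**
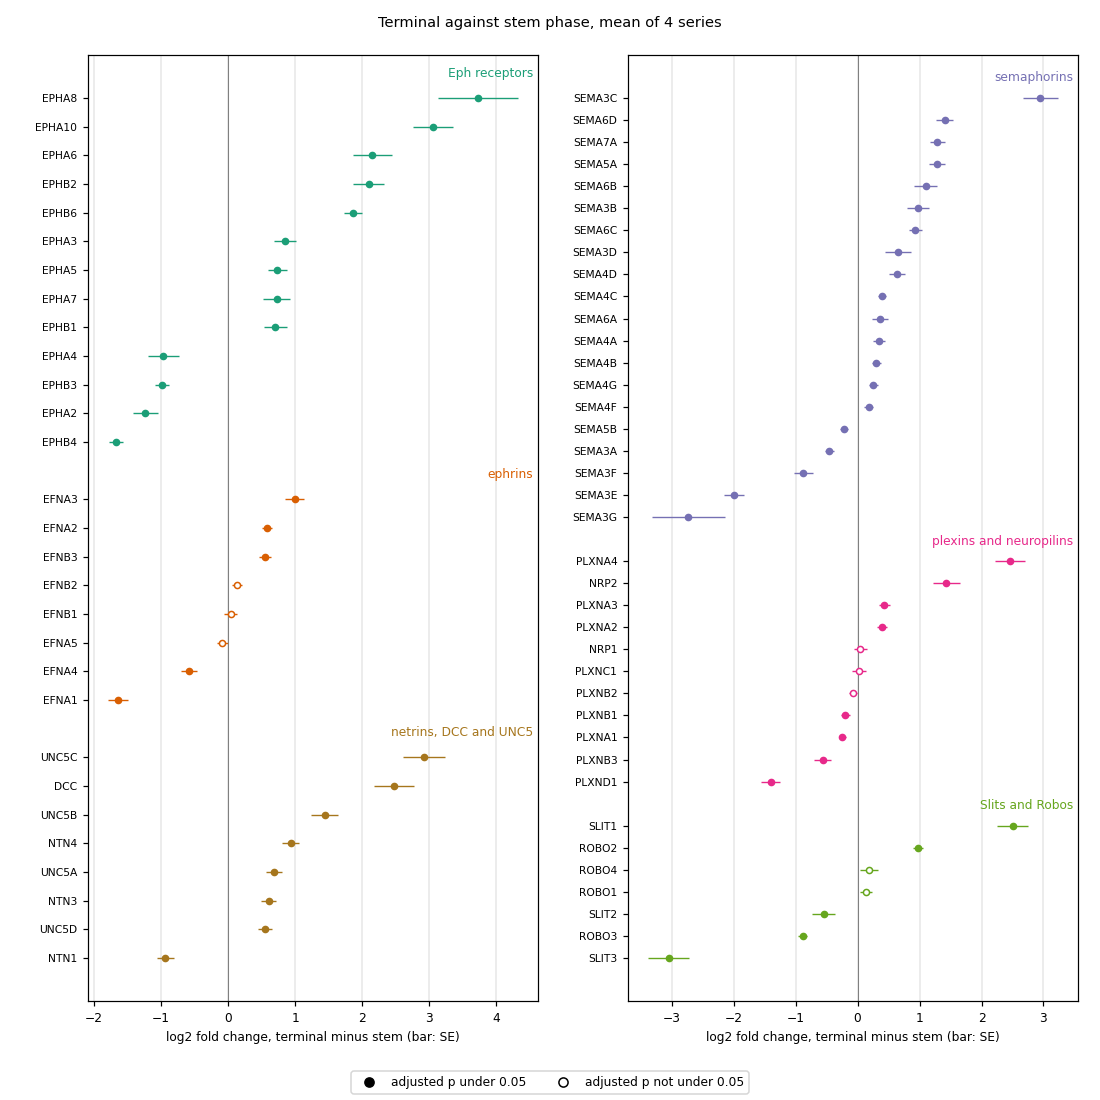
Log2 fold change of each tested guidance gene between terminal and stem libraries, averaged over the 4 series, with the standard error as a bar and filled points for genes with an edgeR adjusted p under 0.05. SEMA3C at 2.95, UNC5C at 2.92 and SLIT1 at 2.50 are far to the right, and SLIT3 at -3.05 and SEMA3E at -2.00 far to the left.

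The change came in steps of different timing. Between transition and stem libraries 28 genes were higher and 15 lower (background 21.6% and 20% of all tested genes), and between terminal and transition libraries 28 were higher and 14 lower (22.7% and 19.2%). With the 4 series averaged to 1 value a day and tested by limma, the calls were 17 and 8 (10.6% and 9% of all tested genes), then 15 and 9 (7.59% and 6.13%). DCC had its whole rise in the first step, at 2.52 on the log2 scale against -0.04 in the second. NTN1 likewise moved by -0.90 and then by -0.03, and EFNA3 by 0.91 and then by 0.09. UNC5C (0.85, which did not pass, and then 2.07), SEMA3C (0.76 and 2.19), SEMA5A (0.12, which did not pass, and 1.15) and SEMA6D (0.34 and 1.06) had most of theirs in the second. SEMA6A went down by -0.42 and then up by 0.79, which left the small net rise given above. EPHB2 rose by 1.09 and 1.01, and its daily values placed a jump between days 7 and 8 in every series but E42 Posterior. At E77 Frontal it had 23.0 RPKM on day 8 against 6.55 RPKM on day 7, at E77 Occipital 15.0 against 7.16 RPKM and at E42 Anterior 43.0 against 11.8 RPKM. At E42 Posterior EPHB2 had 16.5 against 12.8 RPKM, with 15.2 RPKM already on day 5. No test was made of that single-day difference, which rests on 1 library a day.

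**Figure D3:**
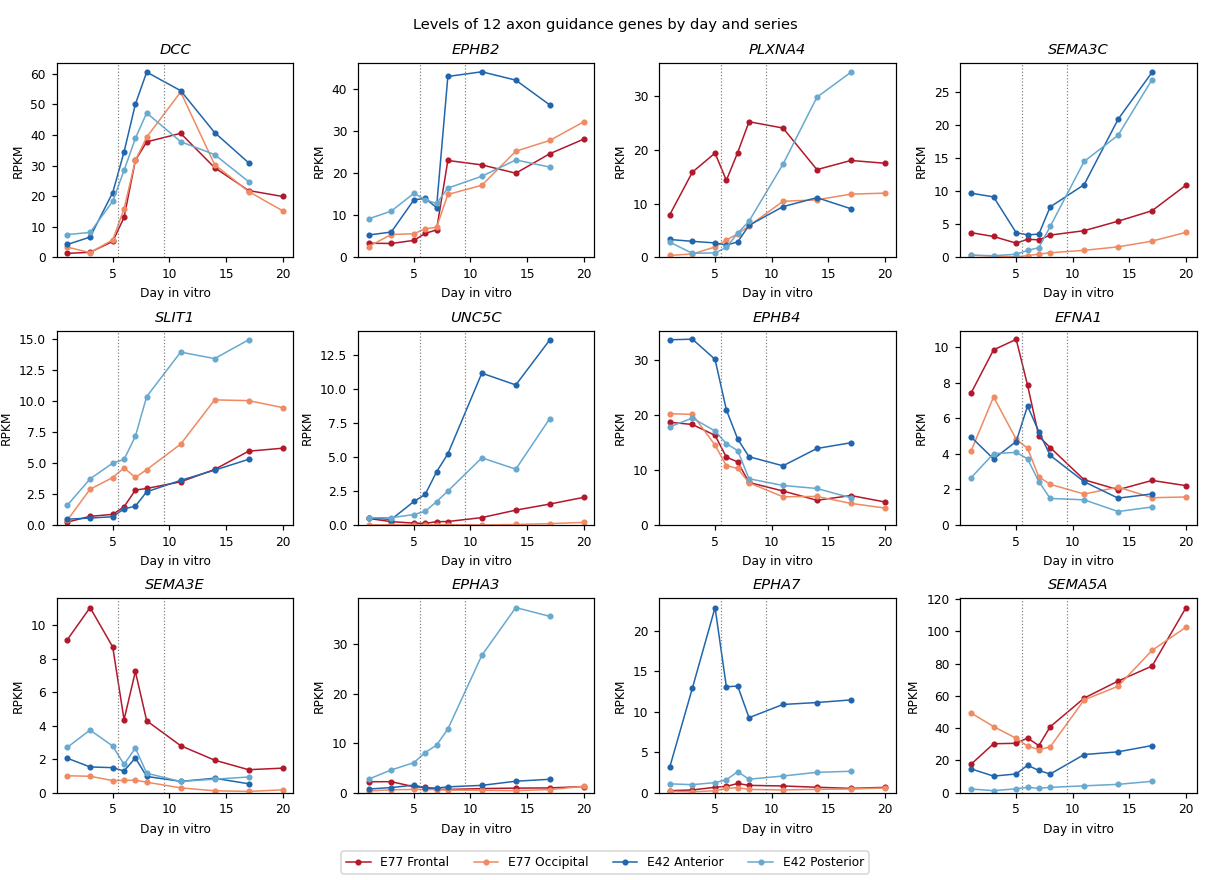
RPKM by day in vitro for 12 guidance genes, with 1 line for each culture series and 1 library at each point. DCC climbs between days 5 and 8 in every series and is lower on the last day. EPHB4 and EFNA1 are lower on the last day than on day 1 in every series, though not at every step between. EPHA7 is lower and SEMA5A higher in both E77 series than in both E42 series on every shared day. EPHA3 is highest in E42 Posterior on every shared day.

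Other genes of guidance signalling, 55 of which were tested, included 27 that were higher (49.1%, against 31.9% of all tested genes) and 15 that were lower (27.3%, against 30.4%) in terminal than in stem libraries. L1CAM, an axonal adhesion molecule, had 7.38 to 20.9 RPKM in terminal libraries (median 11.6) and 0 to 3.93 RPKM in stem libraries (median 0.982), with no overlap and a log2 fold change of 4.35. FLRT1, of a family whose members bind UNC5 receptors, was higher by 3.59 and ABLIM3, an actin-binding protein, by 3.26. Among those that fell were NTNG1, a lipid-anchored netrin relative, at -0.89, FLRT3 at -0.86 and GPC1, a glypican that binds Slits, at -0.80.

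The second question is how E77 and E42 cultures differed. Guidance genes were mostly lower at E77. In the stem phase 11 of 67 were higher (28.8% of all tested genes) and 37 lower (31.4%) in the 6 E77 than in the 6 E42 libraries, with a median log2 fold change of -0.43 against -0.03 over all tested genes. In the terminal phase 14 were higher (20.6%) and 35 lower (24.4%) in the 8 E77 than in the 6 E42 libraries, with medians of -0.35 and -0.02. In both phases, 7 genes were higher at E77 (13.7% of all tested genes) and 23 lower (16.8%). In the occipital and posterior series alone, 11 genes were higher (20.2%) and 24 lower (20.6%) in the stem phase. Eph receptors had 2 higher and 10 lower of 13 in the stem phase and 2 and 8 in the terminal phase, ephrins 1 and 6 of 8 in each phase, and Slits and Robos none higher and 4 and 6 lower of 7. Semaphorins were divided, with 4 higher and 7 lower of 20 in the stem phase and 6 and 6 in the terminal phase. The netrin group had 2 higher and 4 lower of 8, then 3 and 4, and plexins and neuropilins 2 and 6 of 11, then 2 and 5. Several cell type markers moved with age: in the terminal phase 11 of 12 neuronal, 9 of 10 glutamatergic, 6 of 8 choroid plexus and hem and all 10 proliferation markers were lower at E77 and all 10 oligodendrocyte and 7 of 8 astrocyte markers higher. In the stem phase 9 of 12 neuronal, 9 of 10 glutamatergic, all 8 choroid plexus and hem, 6 of 9 GABAergic and 7 of 10 proliferation markers were lower, and 6 of 8 astrocyte and 5 of 10 oligodendrocyte markers higher. In both phases 10 of 12 mesenchymal markers were lower. Their part in the age differences was not tested. E42 Anterior held the mesenchymal signal. For the 67 genes the occipital and posterior series alone are therefore given where their value differs by over 1.5 times or loses the call.

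EPHA6, EPHA7 and EPHA3, all receptors for ephrin-A ligands, had the lowest values among the Eph genes in the terminal phase. EPHA7 had 0.124 to 0.679 RPKM (median 0.258) in E77 and 1.003 to 22.9 RPKM (median 2.21) in E42 stem libraries with no overlap (-3.86 ± 0.26, edgeR adjusted p = 4.08e-11), and 0.352 to 0.842 RPKM (median 0.568) in E77 and 2.07 to 11.5 RPKM (median 6.78) in E42 terminal libraries, again with none (-3.31 ± 0.23, edgeR adjusted p = 1.02e-10). Those occipital and posterior series alone gave -2.75 and -2.43. EPHA3 had 0.432 to 1.30 RPKM (median 0.898) in E77 and 1.501 to 37.4 RPKM (median 15.2) in E42 terminal libraries, with no overlap (-3.64 ± 0.19, edgeR adjusted p = 4.23e-13; -5.86 in the occipital and posterior series alone). The high EPHA3 values were those of E42 Posterior, so that the stem-phase value of -1.19 was -3.01 in the occipital and posterior series and 0.62, the opposite sign, in the frontal and anterior ones. EPHA6 was lower by a log2 fold change of -4.62 ± 0.23 in the terminal phase (edgeR adjusted p = 2.51e-14), with 0.0172 to 0.563 RPKM (median 0.0926) in E77 and 0.740 to 5.83 RPKM (median 2.31) in E42 libraries. EPHA4 was likewise free of overlap there, at 0.420 to 3.41 RPKM (median 1.34) in E77 and 5.41 to 7.65 RPKM (median 6.32) in E42 libraries (-1.97 ± 0.31, edgeR adjusted p = 2.28e-05).

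UNC5C showed the widest age gap of all the guidance genes. Terminal libraries had 0.0174 to 2.04 RPKM at E77 (median 0.377), against 4.11 to 13.6 RPKM at E42 (median 9.05), a log2 fold change of -5.01 ± 0.29 (edgeR adjusted p = 3.4e-12) that was -6.34 in the occipital and posterior series alone. SEMA3C had 1.08 to 10.9 RPKM (median 3.92) in E77 and 11.003 to 28.0 RPKM (median 19.7) in E42 terminal libraries, a narrow gap without overlap (-2.72 ± 0.19, edgeR adjusted p = 3.13e-11). SLIT2, a Slit ligand, was lower by a log2 fold change of -2.08 ± 0.22 (edgeR adjusted p = 4.67e-08), with 0.522 to 1.55 RPKM (median 0.998) in E77 and 1.54 to 7.07 RPKM (median 3.45) in E42 terminal libraries, and it was -1.30 in the occipital and posterior series alone. In the stem phase NRP1, the SEMA3A co-receptor, had 2.56 to 9.51 RPKM (median 6.04) in E77 and 6.71 to 24.3 RPKM (median 14.4) in E42 libraries (-1.44 ± 0.12, edgeR adjusted p = 4.06e-10), and EFNA3 1.36 to 2.99 RPKM (median 2.70) in E77 and 3.32 to 11.6 RPKM (median 5.01) in E42 libraries (-1.22 ± 0.14, edgeR adjusted p = 8.54e-08), the last at -0.76 in the occipital and posterior series alone. EFNB2 was lower in E77 stem libraries by -0.52, with -1.22 in the occipital and posterior series and 0.17, which did not pass, in the frontal and anterior ones.

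A smaller set was higher at E77, led by SEMA5A. This semaphorin had 17.6 to 49.5 RPKM (median 32.2) in E77 and 1.31 to 14.8 RPKM (median 6.41) in E42 stem libraries (2.62 ± 0.16, edgeR adjusted p = 2.38e-12), and 57.5 to 115 RPKM (median 73.8) in E77 and 4.30 to 29.3 RPKM (median 15.4) in E42 terminal libraries (2.49 ± 0.15, edgeR adjusted p = 4.07e-12). The E77 and E42 ranges did not overlap in either phase, and the stem value was 4.35 in the occipital and posterior series alone. PLXNB3, a plexin-B reported to bind SEMA5A, was higher by 1.12 ± 0.18 in the stem phase (edgeR adjusted p = 1.24e-05; 0.69 in the occipital and posterior series alone), and in the terminal phase it had 14.6 to 48.1 RPKM (median 23.2) in E77 and 3.88 to 5.69 RPKM (median 5.11) in E42 libraries (2.18 ± 0.19, edgeR adjusted p = 1.95e-09). EPHB1, an ephrin-B receptor, had 13.996 to 27.8 RPKM (median 18.4) in E77 and 4.75 to 9.71 RPKM (median 6.88) in E42 terminal libraries with no overlap (1.35 ± 0.19, edgeR adjusted p = 2.76e-06). NTN1 (1.88 ± 0.18), NTN3 (1.25 ± 0.13) and PLXNB1 (0.97 ± 0.08) were higher at E77 in the terminal phase too, with edgeR adjusted p-values of 6.19e-09, 1.6e-08 and 7.73e-11. NTN1 in the occipital and posterior series alone was higher by 3.04.

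Some receptors changed sides between the phases. The change between terminal and stem libraries differed between the ages by a test of that difference for 22 genes, 13 with a larger value at E77 (9.46% of all tested genes) and 9 with a smaller one (9.95%). The balance turned round with limma on log2(RPKM + 1), which gave 8 larger (7%) and 14 smaller (15.1%), and on log2(RPKM + 0.1), which gave 9 larger (6.96%) and 14 smaller (14.6%). In the occipital and posterior series alone, an alternative added after seeing the data, 3 were larger (2.27%) and 8 smaller (2.65%). Called on the higher side at E77 in the stem phase and on the lower side in the terminal phase were 3 genes, EPHA5, UNC5D and PLXNA2 (1.06% of all tested genes), and the reverse held for EPHB3, NTN3 and NTN4 (0.919%). In the occipital and posterior series alone the stem values of EPHB3, NTN3 and NTN4 were 0.10, 0.44 and 0.18, and the terminal value of NTN4 0.42, and none of the 4 passed. EPHA5, an ephrin-A receptor, was the clearest: it had 0.694 to 1.72 RPKM (median 0.995) in E77 and 2.08 to 5.23 RPKM (median 3.61) in E42 terminal libraries (-1.76 ± 0.20, edgeR adjusted p = 1.36e-07), but 1.36 to 2.83 RPKM (median 2.21) in E77 and 0.269 to 1.25 RPKM (median 0.676) in E42 stem libraries (1.59 ± 0.20, edgeR adjusted p = 7.12e-07). Neither phase had an overlap between the ages. The difference of the changes was -3.26 ± 0.29 (edgeR adjusted p = 2.48e-08). UNC5D, a netrin receptor of migrating cortical neurons in the mouse, followed the same course at a higher level. It had 4.50 to 10.9 RPKM (median 8.34) in E77 and 12.2 to 18.3 RPKM (median 15.3) in E42 terminal libraries, and 6.44 to 13.1 RPKM (median 9.59) in E77 and 3.91 to 8.67 RPKM (median 5.27) in E42 stem libraries, with a difference of -1.75 ± 0.21 (edgeR adjusted p = 2.53e-06). Its terminal value was -1.03, and -1.64 in the occipital and posterior series alone. PLXNA2, a plexin-A, had age differences of -0.60 in the terminal phase (-1.07 in the occipital and posterior series alone) and 0.49 in the stem phase, and a difference between them of -1.14 ± 0.15 (edgeR adjusted p = 7.82e-06; -1.74 in the occipital and posterior series alone).

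In the other direction SEMA3D, a secreted semaphorin, had a difference of 3.07 ± 0.42 (edgeR adjusted p = 9.47e-06). E77 Occipital had 0.172, 0.277 and 0.256 RPKM on days 1, 3 and 5 and 2.15, 2.59, 3.16 and 3.06 RPKM on days 11, 14, 17 and 20, while E42 Anterior had 6.06, 3.07 and 0.724 RPKM and then 0.661, 0.797 and 0.869 RPKM. The change did not pass at E77 Frontal, with 0.793 to 1.84 RPKM in stem and 2.10 to 2.76 RPKM in terminal libraries. Nor did it pass at E42 Posterior, with 0.190 to 0.416 RPKM in stem and 0.273 to 0.502 RPKM in terminal libraries. Terminal libraries did not overlap between the ages, at 2.10 to 3.16 RPKM (median 2.55) at E77 and 0.273 to 0.869 RPKM (median 0.581) at E42. NTN3 had a difference of 1.59 (edgeR adjusted p = 1.25e-05) and NTN4, a basement-membrane netrin, of 1.04 (edgeR adjusted p = 0.00474), which in the occipital and posterior series alone came to 0.72 and 0.23 and did not pass. DCC did not pass between the ages in the terminal phase, at -0.24 (edgeR adjusted p = 0.24). In the stem phase it was lower at E77, with 1.33 to 5.73 RPKM (median 2.53) in E77 and 4.26 to 21.2 RPKM (median 7.83) in E42 libraries (-1.91 ± 0.17, edgeR adjusted p = 4.15e-09). Its difference of 1.56 ± 0.56 lay near the threshold (edgeR adjusted p = 0.0472), did not pass when any 1 of 13 libraries was left out, and was 1.64 in the occipital and posterior series alone (edgeR adjusted p = 0.231).

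**Figure D4:**
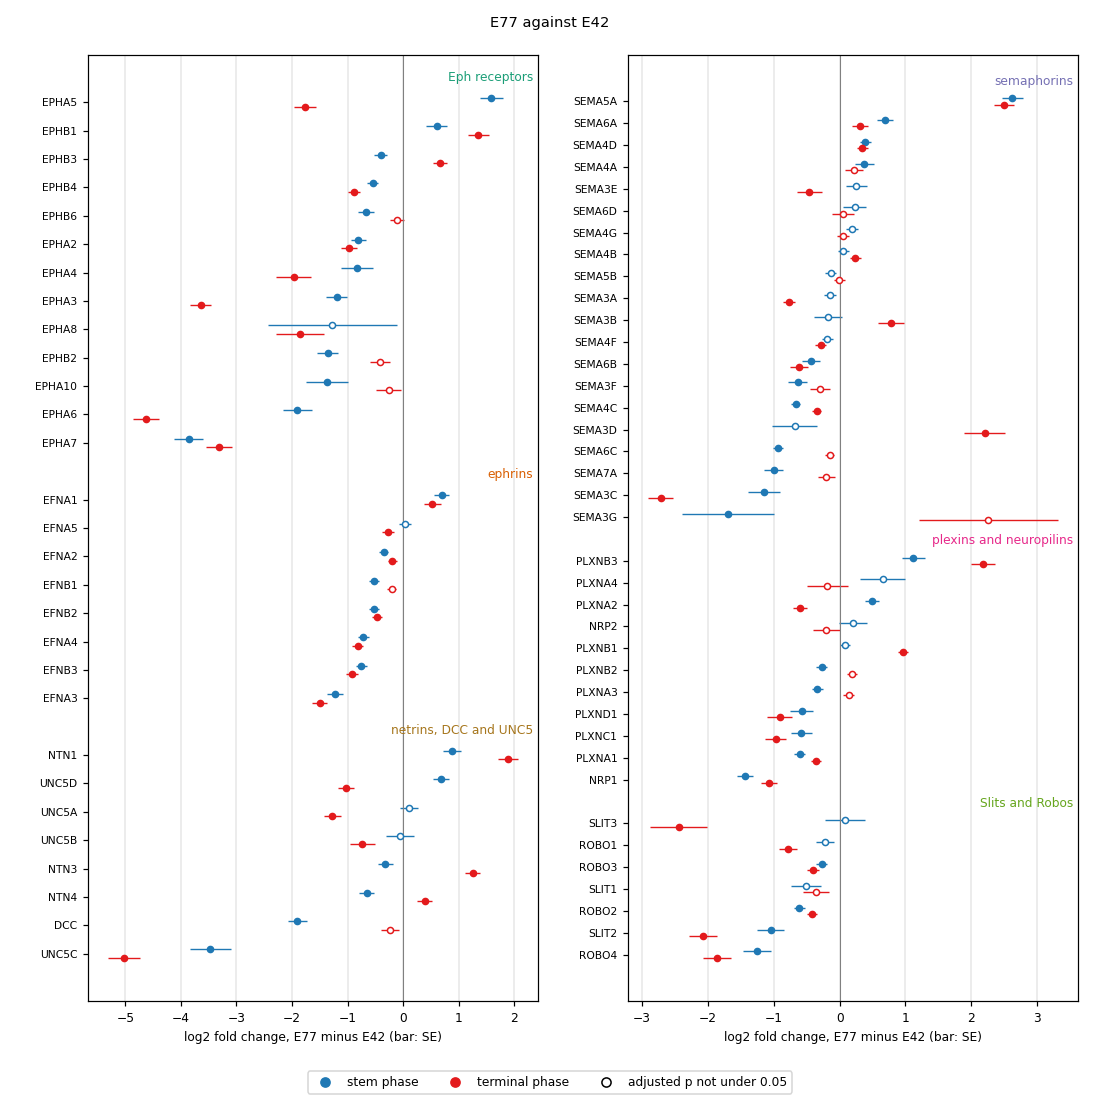
Log2 fold change between E77 and E42 libraries for each tested guidance gene in the stem and terminal phases, with standard errors as bars and filled points for an edgeR adjusted p under 0.05. UNC5C at -5.01 and EPHA6 at -4.62 in the terminal phase are farthest to the left, SEMA5A is at the right in both phases, and EPHA5, UNC5D and PLXNA2 stand on opposite sides of 0 in the 2 phases.

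Of the 55 other guidance genes, 14 were higher (25.5%, against 28.8% of all tested genes) and 26 lower (47.3%, against 31.4%) at E77 in the stem phase, and 13 higher (23.6%, against 20.6%) and 16 lower (29.1%, against 24.4%) in the terminal phase. L1CAM at -4.46 and CXCL12, a chemokine for migrating neurons, at -2.01 were among the lower in the stem phase, and NTNG2, a netrin-G, at 1.81 and NTNG1 at 1.09 among the higher. In the terminal phase ABLIM3 was lower at -2.70, and GPC1 at 1.22 and CNTN2, an axonal adhesion molecule, at 0.999 were higher. Over all days, CXCL12 was higher by 2.56 and ABLIM3 by 1.91 in E42 Anterior than in E42 Posterior. For these 55 genes the values of the occipital and posterior series alone are not given. The part of E42 Anterior in their age differences was not tested.

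The third question is whether the frontal or anterior cultures differed from the occipital or posterior ones. Between the 10 E77 Frontal and 10 E77 Occipital libraries 29 genes were higher in Frontal (16.3% of all tested genes) and 17 lower (13.8%), and between the 9 E42 Anterior and 9 E42 Posterior libraries 30 were higher in Anterior (25.1%) and 19 lower (30.3%), all by the edgeR test with the day of culture as a block. Median log2 fold changes were 0.08 at E77 and 0.18 at E42, against -0.01 and -0.06 over all tested genes. Called higher on the frontal or anterior side at both ages were 18 genes (8.62% of all tested genes), and called lower at both were 8 (6.82%), while 10 were called in opposite directions (5.15%). Each region value averages over all days of a series, so gaps that differed between the phases are averaged in it. These comparisons used the same libraries as those of phase and age above. At E42 all 12 mesenchymal markers were higher in Anterior, with sums given above, as were 5 of 7 endothelial markers, with 1 lower. Lower in Anterior were 10 of 12 neuronal, 8 of 10 proliferation and 9 of 10 glutamatergic markers, with 1 glutamatergic marker higher. The glutamatergic markers summed to 32.8 to 35.9 RPKM in Anterior and 179 to 204 RPKM in Posterior terminal libraries. At E77 7 of 12 mesenchymal and 8 of 10 proliferation markers were higher in Frontal and 6 of 10 oligodendrocyte markers lower. Their part in the region differences was not tested.

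Ephrin ligands leaned to the frontal and anterior side, with 5 higher and 1 lower of 8 at E77 and 5 higher and none lower at E42. EFNA5, an ephrin-A ligand graded across the mouse cortex, had 8.64 to 12.3 RPKM (median 11.002) in E77 Frontal and 3.78 to 7.09 RPKM (median 5.83) in E77 Occipital libraries with no overlap (0.97 ± 0.08, edgeR adjusted p = 1.17e-09). At E42 it had 6.84 to 13.7 RPKM (median 10.6) in Anterior and 4.72 to 9.48 RPKM (median 5.89) in Posterior libraries (0.88 ± 0.09, edgeR adjusted p = 4.42e-09). The difference between the ages was 0.09 ± 0.12 (edgeR adjusted p = 0.585). EFNA3 was higher by 0.97 ± 0.11 in E77 Frontal and by 1.37 ± 0.11 in E42 Anterior (edgeR adjusted p = 1.92e-07 and 3.75e-11). EFNB2 had 65.0 to 83.9 RPKM (median 73.3) in Frontal and 33.2 to 55.6 RPKM (median 42.7) in Occipital libraries and no overlap (0.74 ± 0.07, edgeR adjusted p = 2.43e-09). Its E42 value of -0.13 did not pass, with 45.0 to 70.8 RPKM in Anterior and 91.9 to 104 RPKM in Posterior stem libraries and 82.1 to 93.3 RPKM in Anterior and 75.4 to 80.0 RPKM in Posterior terminal libraries, and the difference was 0.87 ± 0.10 (edgeR adjusted p = 7.76e-08).

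Several secreted cues and receptors were higher on the frontal and anterior side at both ages. SLIT3 was higher by 3.85 ± 0.30 in E77 Frontal and by 4.12 ± 0.27 in E42 Anterior (edgeR adjusted p = 6.45e-10 and 1.02e-11). SEMA3C had 2.16 to 10.9 RPKM (median 3.57) in E77 Frontal and 0.103 to 3.80 RPKM (median 0.611) in E77 Occipital libraries (2.67 ± 0.18, edgeR adjusted p = 3.42e-11), and 3.42 to 28.0 RPKM (median 9.16) in E42 Anterior and 0.259 to 26.9 RPKM (median 1.48) in E42 Posterior libraries (1.90 ± 0.16, edgeR adjusted p = 4.03e-10). The E42 gap lay in the earlier days, with 9.72, 9.16 and 3.73 RPKM in Anterior and 0.345, 0.259 and 0.489 RPKM in Posterior on days 1, 3 and 5, and 11.003, 20.9 and 28.0 RPKM in Anterior and 14.5, 18.5 and 26.9 RPKM in Posterior on days 11, 14 and 17. PLXND1 had 1.69 to 11.8 RPKM (median 4.39) in E77 Frontal and 0.774 to 1.68 RPKM (median 1.10) in E77 Occipital libraries, which did not overlap (1.84 ± 0.15, edgeR adjusted p = 8.28e-10), and was higher by 1.93 ± 0.15 in E42 Anterior (edgeR adjusted p = 1.41e-10). NRP1 had 5.47 to 11.005 RPKM (median 8.64) in E77 Frontal and 2.56 to 4.33 RPKM (median 3.51) in E77 Occipital libraries, also without overlap (1.21 ± 0.10, edgeR adjusted p = 2.66e-10). NTN1 was higher by 0.82 in Frontal and by 1.60 in Anterior, and SEMA3D by 1.58 and 1.83. In the E77 terminal phase SEMA3D had 2.10 to 2.76 RPKM in Frontal and 2.15 to 3.16 RPKM in Occipital libraries, and NTN1 13.0 to 20.4 RPKM in Frontal and 9.96 to 19.1 RPKM in Occipital libraries, so that both ranges overlapped there.

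A few genes were lower on the frontal and anterior side at both ages. SLIT1 had 0.246 to 6.20 RPKM (median 2.89) in E77 Frontal and 0.413 to 10.1 RPKM (median 4.55) in E77 Occipital libraries (-1.22 ± 0.17, edgeR adjusted p = 4.01e-06), and 0.481 to 5.31 RPKM (median 1.53) in E42 Anterior and 1.62 to 14.9 RPKM (median 7.16) in E42 Posterior libraries (-1.96 ± 0.17, edgeR adjusted p = 1.46e-09). SEMA7A, a lipid-anchored semaphorin that binds plexin-C1, was lower by log2 fold changes of -0.89 ± 0.11 and -0.96 ± 0.11 (edgeR adjusted p = 4.83e-07 and 3.58e-08). PLXNB1 was lower by -0.41 at E77 and -0.62 at E42.

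The region difference itself differed between the ages for 38 genes, 19 with a larger value at E77 (20.6% of all tested genes) and 19 with a smaller one (18%). SEMA3E was a frontal gene at E77, with 1.38 to 11.1 RPKM (median 4.33) in Frontal and 0.0830 to 1.02 RPKM (median 0.680) in Occipital libraries and no overlap (3.23 ± 0.14, edgeR adjusted p = 1.06e-14), and slightly lower in Anterior at E42, with 0.539 to 2.08 RPKM (median 1.30) in Anterior and 0.676 to 3.74 RPKM (median 1.69) in Posterior libraries (-0.38 ± 0.13, edgeR adjusted p = 0.0201). The difference was 3.61 ± 0.20 (edgeR adjusted p = 3.17e-13). PLXNA4 was higher by 2.25 ± 0.26 in E77 Frontal (edgeR adjusted p = 4.56e-07) and did not pass at E42, at -0.09, with a difference of 2.35 ± 0.36 (edgeR adjusted p = 2.2e-05). The E42 value averages over gaps of opposite sign: on days 1, 3 and 5 PLXNA4 had 3.35, 3.01 and 2.70 RPKM in Anterior and 2.85, 0.770 and 0.856 RPKM in Posterior, and on days 11, 14 and 17 9.46, 11.1 and 9.08 RPKM in Anterior and 17.4, 29.9 and 34.5 RPKM in Posterior. EPHA3 had the largest difference, 3.88 ± 0.21 (edgeR adjusted p = 1.17e-12). It was higher by 0.92 in E77 Frontal but lower by a log2 fold change of -2.97 ± 0.15 in E42 Anterior, which had 0.762 to 2.73 RPKM (median 1.20), against 2.75 to 37.4 RPKM (median 9.62) in E42 Posterior.

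SEMA5A, UNC5B and EPHA7 had a larger region gap at E42. SEMA5A had 10.3 to 29.3 RPKM (median 14.8) in E42 Anterior and 1.31 to 7.10 RPKM (median 3.34) in E42 Posterior libraries without overlap (2.44 ± 0.13, edgeR adjusted p = 5.24e-14), while its E77 value of -0.14 did not pass, for a difference of -2.58 ± 0.17 (edgeR adjusted p = 1.77e-11). UNC5B had 3.43 to 18.7 RPKM (median 10.2) in E42 Anterior and 0.459 to 2.68 RPKM (median 1.18) in E42 Posterior libraries (3.24 ± 0.20, edgeR adjusted p = 7.03e-12), and its E77 value was 1.23, a difference of -2.01 ± 0.27 (edgeR adjusted p = 3.96e-06). At E77 the gap was in the stem phase, with 4.45 to 8.14 RPKM in Frontal and 0.275 to 1.02 RPKM in Occipital libraries, against 2.95 to 5.16 RPKM in Frontal and 2.51 to 7.47 RPKM in Occipital terminal libraries. EPHA7 had 3.16, 12.9 and 22.9 RPKM on days 1, 3 and 5 of E42 Anterior and 9.27 to 13.2 RPKM from day 6 on, against 1.003 to 2.65 RPKM (median 1.68) in E42 Posterior (2.79 ± 0.18, edgeR adjusted p = 6.13e-12). Its E77 value was 0.85, and the difference was -1.94 ± 0.27 (edgeR adjusted p = 6.32e-06). At E77, EPHA7 stayed between 0.124 and 1.15 RPKM in every library. All E42 Anterior values here are from the series with the mesenchymal signal.

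**Figure D5:**
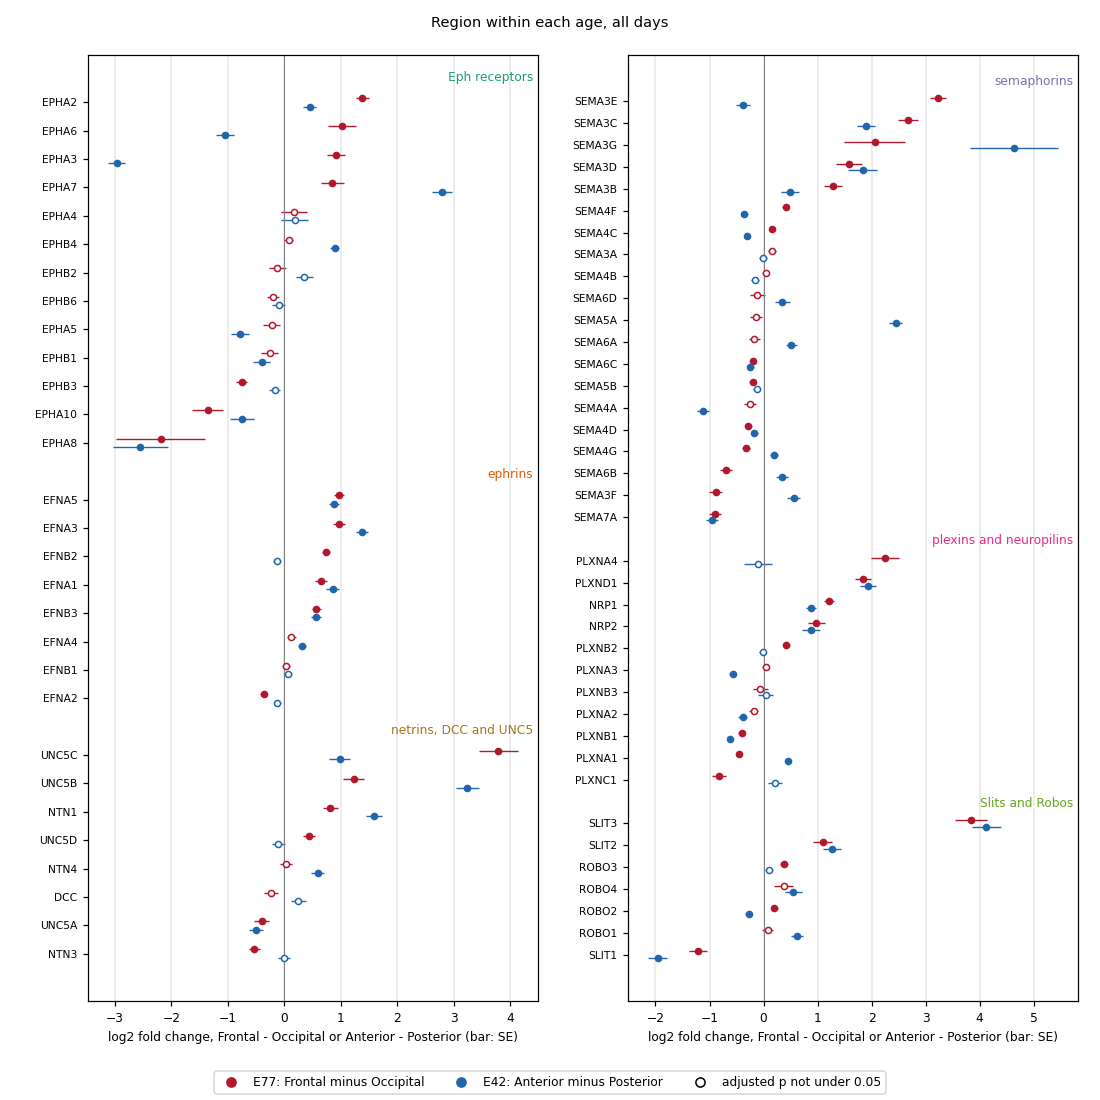
Log2 fold change between E77 Frontal and E77 Occipital and between E42 Anterior and E42 Posterior libraries for each tested guidance gene, with standard errors as bars and filled points for an edgeR adjusted p under 0.05. SLIT3, SEMA3C and PLXND1 are to the right at both ages, whereas SEMA3E at 3.23 is to the right at E77 only and EPHA3 at -2.97 is to the left at E42 only.

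Among the other 55 guidance genes 13 were higher (23.6%, against 16.3% of all tested genes) and 14 lower (25.5%, against 13.8%) in E77 Frontal than in E77 Occipital, and 18 higher (32.7%, against 25.1%) and 16 lower (29.1%, against 30.3%) in E42 Anterior than in E42 Posterior. NGEF, an exchange factor that works downstream of EphA receptors, was higher by 2.75 in E77 Frontal, CNTN2 by 1.85 and ABLIM3 by 1.52, and CXCL12 was higher by 2.56 in E42 Anterior. RND1, a small GTPase that binds plexins, was lower at both ages, at -1.04 in E77 Frontal and -0.92 in E42 Anterior.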

How the data were processed

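Poly(A) RNA of 38 cultures was sequenced as strand-specific (dUTP) libraries, per the labels' protocols. The authors deposited raw counts for each gene and library, and the RPKM computed for the same entries. STAR and featureCounts are named in the submitters' processing notes, and their versions, the genome build, the annotation and the strand setting of the counting are not given in the sources used here, so reads of a gene and an overlapping antisense gene may not be separated. For 16437 genes the deposited RPKM gave 1 length per gene over all libraries within a coefficient of variation of 0.0033.

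Counts were tested with edgeR 4.0.16 (R 4.3.3; TMM factors 0.8989 to 1.104, trended robust quasi-likelihood fit over 12 groups of series and phase, filterByExpr), with p-values adjusted by the Benjamini-Hochberg method over 20794 genes and a threshold of 0.05. The age comparisons within a phase and the region comparisons had the day in vitro as a block. The labels use the same days in every series, and deviations of same-day libraries correlated above 0.1 in 44 of 55 pairs (-0.096 to 0.685, median 0.224). The labels do not say whether same-day libraries share an animal. Standard errors are the log2 fold change divided by the root of the F statistic. Levels are the deposited RPKM, and fold changes come from the counts. Alternatives were DESeq2 1.42.0, its size factors, no low-count filter, limma 3.58.1 on log2(RPKM + 1) and log2(RPKM + 0.1) with RPKM of at least 1 in 3 libraries, other blocks, parts of the series and leaving out each library. The fit was tested on simulated data. Over the 703 library pairs, the variance between libraries was at least 3.56 times that of counting noise, for genes with 20 or more counts in both, so no library was a copy of another and counting error was the smaller part of the spread.

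The genes and lists were chosen with earlier results of these data known. Named were, per comparison, up to 8 higher and 8 lower genes by fold change with a mean of at least 1 RPKM on the higher side, the 2 highest genes of each family, and up to 3 higher and 3 lower of the other guidance genes. Others, such as ROBO3, SEMA6D, NRP2, the class 4 semaphorins and EFNA5, were chosen after their values were seen.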

Additional observations from a re-analysis of the deposited data

Results flagged for a closer look

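The change between terminal and stem libraries differed between the ages, by a test of the difference itself, for 16 of the genes named by rule. The difference of log2 fold changes, E77 minus E42, was 3.07 for SEMA3D, 1.59 for NTN3, 1.56 for DCC, 1.33 for SEMA3B, 1.27 for PLXNB3, 1.19 for NTN1, 1.14 for EPHB3 and 1.04 for NTN4. It was -3.26 for EPHA5, -2.74 for SLIT3, -2.09 for EPHA3, -1.75 for UNC5D, -1.37 for UNC5A, -1.14 for PLXNA2, -0.63 for SEMA3A and -0.57 for ROBO1.

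The region difference, frontal or anterior against occipital or posterior, differed between the ages by the same kind of test for 16 genes named by rule. Of these, EPHA3 and SEMA3B are also in the list above. E77 minus E42 was 3.88 for EPHA3, 3.61 for SEMA3E, 2.81 for UNC5C, 2.35 for PLXNA4, 0.93 for EPHA2, 0.88 for SEMA4A, 0.87 for EFNB2 and 0.80 for SEMA3B. It was -2.58 for SEMA5A, -2.01 for UNC5B, -1.94 for EPHA7, -1.44 for SEMA3F, -1.04 for SEMA6B, -1.03 for PLXNC1, -0.91 for PLXNA1 and -0.81 for EPHB4. Both lists hold at most 8 genes a direction, by the naming rule, and not every gene that passed.

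In the E77 Occipital terminal group, SEMA3A on day 11 lay apart, at 9.01 RPKM against 6.21 to 6.50 RPKM in the other 3 libraries. Chance flags about 1 in 20 such groups.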

How the results depend on the processing

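Over the tables of alternatives, 616 counts of higher or lower genes stayed within 1.5 times their value and 10 did not. Of the values of single genes named by rule, 6359 kept direction and call, 175 lost the call, 3 gained it and 15 changed sign. Outside the average of terminal against stem, only genes that passed were entered, so no call could be gained there. Fits that left out 1 library kept the trended estimate of the spread from the full fit. With 1 value per day, transition against stem gave 17 higher and 8 lower genes and terminal against transition 15 and 9. In the posterior and occipital series alone 24 genes were lower at E77 in the stem phase, and, added after seeing the data, 3 had a larger change at E77. On log2(RPKM + 1), the difference between the ages gave 8 larger and 14 smaller, and on log2(RPKM + 0.1) 14 smaller. Signs changed for terminal against stem without E42 Anterior in EFNB1 (-0.10), EFNB2 (-0.0106), PLXNB2 (0.000173), PLXNB1 (0.0379) and ROBO1 (-0.0567), and for EFNB1 without the filter (-0.0013) and without day 1 (-0.14). They changed for age in the anterior and frontal series alone in EPHA3 (0.62) and EFNB2 (0.17) in the stem phase and SEMA6A (-0.0684) in the terminal phase, and for the region difference between ages of UNC5C on log2(RPKM + 1) (-0.10). The cause of these changes was not tested.

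Leaving out 1 library at a time gave 38 to 41 higher and 19 lower genes for terminal against stem, 19 to 28 and 10 to 13 at E77 Frontal, 24 to 31 and 13 to 18 at E77 Occipital, 19 to 27 and 13 to 15 at E42 Anterior, and 19 to 30 and 10 to 17 at E42 Posterior. It gave 23 to 29 and 13 to 16 for transition against stem and 26 to 29 and 13 to 14 for terminal against transition. For age it gave 10 to 13 and 35 to 40 in the stem phase, 11 to 16 and 32 to 37 in the terminal phase, and 11 to 18 and 8 to 12 for their difference. For region it gave 28 to 30 and 14 to 18 at E77, 28 to 32 and 16 to 20 at E42, and 17 to 20 and 15 to 21 for their difference. The EFNB1 log2 fold change of terminal against stem libraries ran from -0.0268 to 0.111. Each group of a series and phase held 3 or 4 libraries. The effect of that number, or of depth, on the calls of small changes was not tested.

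Without the replicate block of days the age comparison gave 10 higher and 36 lower genes in the stem phase and 12 and 31 in the terminal phase, and the region comparison 26 and 13 at E77 and 25 and 15 at E42, with 14 and 16 for their difference. With the replicate block, the difference between the ages of the terminal change gave 18 larger and 12 smaller. None of these counts moved by over 1.5 times.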
